A study of Mus musculus with 8 samples.

Results

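The interferon-inducible GTPases of mice fall into a family of larger guanylate-binding proteins (GBP) and a family of smaller immunity-related GTPases (IRG). Described here are 10 of their genes, Gbp2, Gbp3, Gbp6, Gbp7, Iigp1, Irgm1, Irgm2, Igtp, Tgtp1 and Tgtp2, among 16958 genes with values in 6 libraries of intestinal crypts. The genes were chosen by name with their levels in these same libraries known, so their values are a description and no test was made. The 5 knockout libraries, named VEMD2, VEMD3, VEMD4, VEMD6 and VEMD8, came from mice with the genotype setdb1 iIEC-KO, and the WT library came from a littermate with the genotype setdb1fl/fl. All were C57BL/6 mice aged 8 weeks. Both genotypes received 1 dose of tamoxifen at 800 mg/kg by gavage, which activates the CreERT2 recombinase in Villin-CreERT2 mice and so removes floxed Setdb1 in the intestinal epithelium. Setdb1 encodes a histone H3 lysine methyltransferase. The labels do not say what VEMD stands for or how many animals went into a library, and the numbers are used as names. Each group is 1 library, so no value carries an error, and higher and lower describe these libraries only.

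Interferon-gamma is made mainly by T cells and natural killer cells. It binds a receptor built from Ifngr1 and Ifngr2, and the signal passes through the kinases Jak1 and Jak2 to genes that carry DNA elements called GAS. Among the genes it induces is Irf1, whose product binds interferon-stimulated response elements (ISRE). Type I interferons act through other receptors and mainly through ISRE, and they induce antiviral genes such as Mx1 and Ifit3. GBP and IRG proteins coat the vacuoles in which Toxoplasma and Chlamydia grow, and so help epithelial cells and macrophages to destroy them. Irgm1, Irgm2 and Igtp (also called Irgm3) are regulators that keep the effector GTPases Iigp1, Tgtp1 and Tgtp2 off the cell's own membranes.

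The sequences before the start of transcription hold the elements through which interferons act, and they are shown because the members of both families differ in them. RefSeq promoters on GRCm38.p6 were found for 8 of the 10 members, the exceptions being Gbp6 and Iigp1. In the 250 bases before the start, GAS was searched as TTCNNNGAA and ISRE as GAAA, any 2 bases and GAAA, both on either strand. Capitals mark the matches. Each line runs 5′ to 3′ on the strand of the gene, spans 60 bases, and ends 15 bases after the ISRE match nearest the start of transcription, or at the start where that is closer. The antiviral gene Ifit3 stands last for comparison.
Igtp: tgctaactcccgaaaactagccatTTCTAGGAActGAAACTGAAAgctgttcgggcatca
Irgm2: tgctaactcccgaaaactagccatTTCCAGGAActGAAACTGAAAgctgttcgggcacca
Tgtp1: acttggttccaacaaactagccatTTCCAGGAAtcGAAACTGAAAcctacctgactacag
Tgtp2: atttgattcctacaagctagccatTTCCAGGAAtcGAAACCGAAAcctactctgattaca
Irgm1: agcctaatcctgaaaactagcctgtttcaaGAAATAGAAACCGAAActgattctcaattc
Gbp7: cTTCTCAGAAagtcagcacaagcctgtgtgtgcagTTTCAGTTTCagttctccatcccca
Gbp2: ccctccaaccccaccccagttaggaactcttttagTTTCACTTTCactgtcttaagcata
Gbp3: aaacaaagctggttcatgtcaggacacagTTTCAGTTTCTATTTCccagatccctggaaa
Ifit3: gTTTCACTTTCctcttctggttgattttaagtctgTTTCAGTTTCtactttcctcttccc
They lie at chr11:58199487-58199546 on the plus strand (Igtp), chr11:58214878-58214937 on the plus strand (Irgm2), chr11:48992299-48992358 on the minus strand (Tgtp1), chr11:49064258-49064317 on the minus strand (Tgtp2) and chr11:48871421-48871480 on the minus strand (Irgm1). The others lie on the plus strand at chr3:142530248-142530307 (Gbp7), chr3:142620569-142620628 (Gbp2), chr3:142559970-142560029 (Gbp3) and chr19:34583372-34583431 (Ifit3).

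All 8 members with a promoter held an ISRE match, and 5 also held GAS, while 2.98% of 32851 promoters in the table held ISRE, 7.02% held GAS and 0.332% held both. Counted by gene, as the members are, 936 of 27025 genes held ISRE, 2197 held GAS and 108 held both. In Igtp, Irgm2, Tgtp1 and Tgtp2 the GAS match is followed, after 2 further bases, by the ISRE match, an arrangement seen in 5 of the 32851 promoters. The fifth was that of Gm12185, which also lies on chromosome 11. Gbp7 held 2 GAS matches, which start 106 and 87 bases before the start, and an ISRE match from 53 to 44 bases before it. Gbp2, Gbp3 and Irgm1 held ISRE without GAS in this window, and in Gbp3 and Irgm1 a pair of ISRE matches overlap. Of 23 antiviral genes with a promoter, 12 held ISRE and 4 held GAS. A match to these letters does not show that a factor binds there. The spacing was noticed after the sequences were seen, and genes of a family that arose by duplication share sequence for that reason alone.

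**Figure D1:**
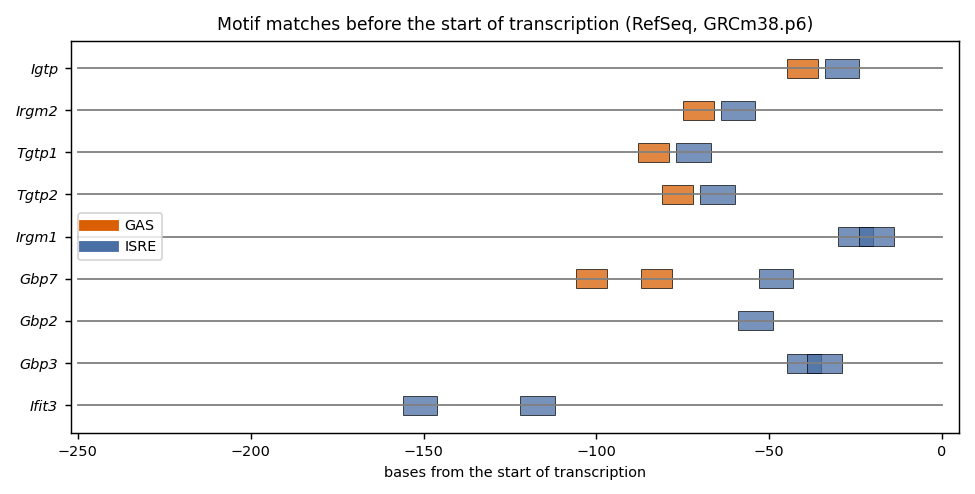
Matches to GAS (orange) and ISRE (blue) on either strand along the 250 bases before the start of transcription (0 on the horizontal axis) of 8 members and of Ifit3; darker blue marks overlapping matches. In Igtp, Irgm2, Tgtp1 and Tgtp2 the GAS match stands 2 bases before the ISRE match.

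For Tgtp1 and Gbp3, the members with the lowest ratio to WT in VEMD8 and the highest ratio to WT in VEMD4, the whole window of 250 bases is given as longer context. These run over chr11:48992247-48992496 on the minus strand and chr3:142559794-142560043 on the plus strand, and Gbp3 has a further annotated start whose window held neither motif. The starts used are those of the promoter entries. For Gbp3 and Ifit3 they lie inside the annotated gene spans, which begin at chr3:142560016 and chr19:34583119.
Tgtp1: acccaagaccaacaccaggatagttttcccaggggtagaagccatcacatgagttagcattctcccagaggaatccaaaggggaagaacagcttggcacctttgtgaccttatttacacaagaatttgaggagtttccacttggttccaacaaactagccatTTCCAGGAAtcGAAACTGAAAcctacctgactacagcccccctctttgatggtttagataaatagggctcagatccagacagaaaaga
Gbp3: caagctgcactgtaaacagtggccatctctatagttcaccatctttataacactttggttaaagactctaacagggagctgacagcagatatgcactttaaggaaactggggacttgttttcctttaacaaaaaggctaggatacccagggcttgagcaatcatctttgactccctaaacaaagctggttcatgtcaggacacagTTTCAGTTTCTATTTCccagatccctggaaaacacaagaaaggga

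Values are FPKM, sequenced fragments scaled to the length of the gene and the size of the library, so levels may be compared between genes. The depth of the libraries is unknown. Summed over all genes, the FPKM lay between 481519 and 566585 in knockouts and stood at 585501 in WT. Setdb1 itself was at 6.64, 7.03, 5.49, 3.53 and 4.95 FPKM in VEMD2, VEMD3, VEMD4, VEMD6 and VEMD8, against 9.42 in WT. A log2 ratio was taken after 1 FPKM was added to each value, and a gene was called higher or lower at 2-fold. Ratios were read for the 10862 genes that averaged 1 FPKM or more over the 6 libraries, among them all 10 members. Each member also exceeded 1 FPKM in WT. Over all these genes the median ratio was 0.09, 0.12, 0.03, -0.23 and -0.06 from VEMD2 to VEMD8. All ratios to WT share the same WT library.

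In the VEMD8 library 9 of the 10 members were lower than in WT by 2-fold or more, and Gbp6 alone was within 2-fold of WT there. The effectors Tgtp1, Tgtp2 and Iigp1 and the guanylate-binding Gbp2 stood at 1.3 to 3.46 FPKM in VEMD8, against 16.8 to 42.0 FPKM in WT. Their course was not that of the antiviral genes, all 32 of which were highest in VEMD4, where 3 members were at least 2-fold lower than WT and 1 was higher. Of the 5 GBP genes read on chromosome 5, 3 were highest in VEMD6, Gbp6 among them, and 2 in VEMD4, as the antiviral genes were. They did not share a single course. In VEMD8 Gbp9 stood at 19.6 FPKM against 2.42 in WT, and Gbp8 at 9.33 against 9.63. In a mixed tissue, fewer cells of a type and less RNA per cell cannot be told apart.

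The members past 2-fold upward and downward numbered 0 and 0 in VEMD2, where 2.44% and 2.39% of all genes passed. They numbered 0 and 2 in VEMD3, against 6% and 4.63% of all genes, and 1 and 3 in VEMD4, against 7.11% and 5.04%. In VEMD6 they numbered 1 and 4, against 5.04% and 8.15%, and in VEMD8 0 and 9, against 4.36% and 5.21%. The median ratio of the members was 0.08, -0.67, -0.20, -0.76 and -1.65 from VEMD2 to VEMD8. After rescaling to the median gene it was -0.01 in VEMD2, -0.80 in VEMD3 and -0.52 in VEMD6. Since these contrasts were in view when the members were chosen, the counts describe them and support nothing further.

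**Figure D2:**
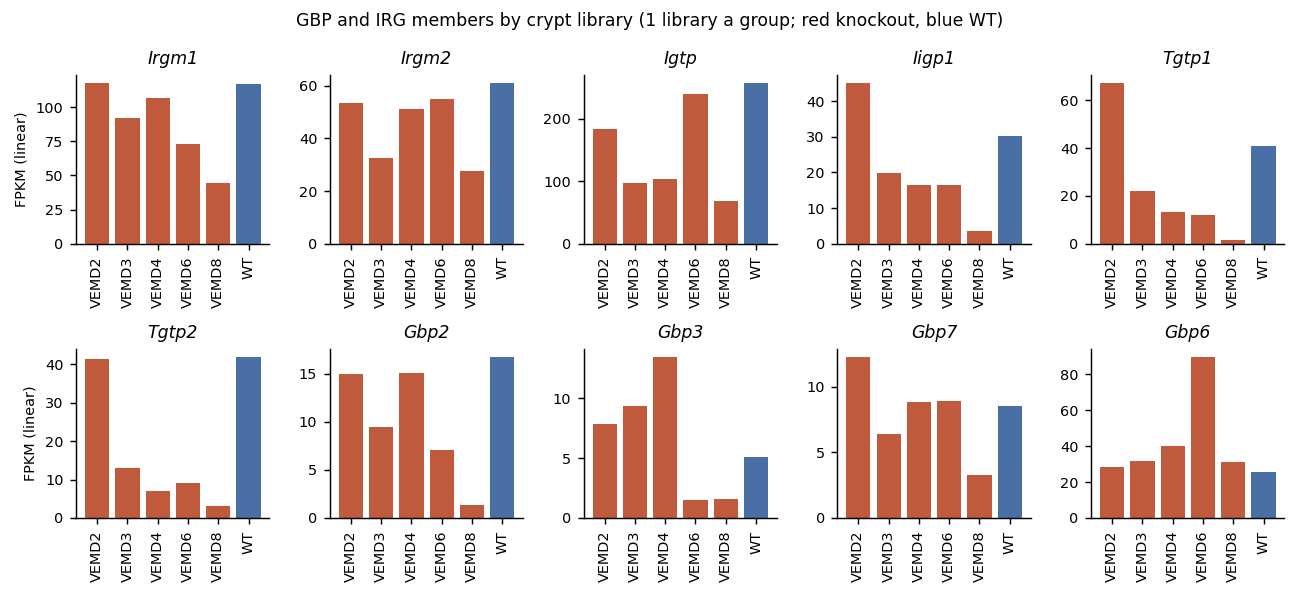
Level of each member in FPKM (vertical axes, linear, each from 0) in the 5 knockout libraries (red) and the WT library (blue), 1 library a bar. Tgtp1 stands at 1.34 in VEMD8 and at 41.0 in WT, while Gbp6 stands at 89.7 in VEMD6 and at 25.5 in WT.

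Among the IRG regulators, Igtp (gene 16145, chr11:58199556-58207592) was the most abundant member in every library but VEMD4, where Irgm1 was slightly higher. Igtp was at 183, 97.6, 103, 239.9 and 68.2 FPKM from VEMD2 to VEMD8, against 258 in WT. VEMD6 was thus next to WT, and VEMD3, VEMD4 and VEMD8 were at least 2-fold below it, with log2 ratios of -1.39, -1.31 and -1.90. Irgm1 (gene 15944, chr11:48865245-48871420), which takes part in autophagy, was at 118, 92.4, 107, 73.15 and 44.1 FPKM from VEMD2 to VEMD8, against 117 in WT. Only VEMD8 was past 2-fold, at a log2 ratio of -1.39. Irgm2 (gene 54396, chr11:58214977-58222783) was at 53.3, 32.7, 51.3, 55.1 and 27.45 FPKM, against 61.2 in WT. Its log2 ratio was -1.13 in VEMD8 and -0.89 in VEMD3, where it came to -1.01 after rescaling. After rescaling, the small negative ratios of Igtp and Irgm2 in VEMD6 turned to 0.13 and 0.08. Together the 3 regulators summed to 354, 223, 261, 368 and 139.7 FPKM from VEMD2 to VEMD8, against 436 in WT.

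The effectors spanned a wider range. Tgtp1 (gene 21822, chr11:48985329-48992246) was at 67.5, 21.9, 13.5, 12.0 and 1.34 FPKM from VEMD2 to VEMD8, against 41.0 in WT. It was highest in VEMD2, was 2-fold or more below WT in VEMD4, VEMD6 and VEMD8, and had the widest span of all members, 50.4-fold between its highest and lowest library. Its level among the genes tested stood at a percentile of 6.495 in VEMD8, against 79.8 in WT. Tgtp2 (gene 100039796, chr11:49057196-49064212) was at 41.45, 13.0, 6.95, 9.0 and 3.17 FPKM, against 42.0 in WT. VEMD2 was level with WT, and the other 4 knockout libraries were at least 2-fold below it, at log2 ratios of -1.62, -2.43, -2.10 and -3.36. The coding sequences of both Tgtp genes share 99.7% of 1245 bases, so that reads of either are hard to assign and their single values are uncertain. Their summed FPKM gave log2 ratios of 0.39, -1.23, -1.97, -1.93 and -3.93, a sum chosen after seeing the data. In the 250 bases before the start, by contrast, they share 68.4%.

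Iigp1 (gene 60440, chr18:60373616-60392634), the effector that coats the vacuole of Toxoplasma, was at 45.2, 19.9, 16.35, 16.5 and 3.46 FPKM from VEMD2 to VEMD8, against 30.3 in WT. It was highest in VEMD2 and past 2-fold from WT only in VEMD8, at a log2 ratio of -2.81. The 3 effectors summed to 154, 54.8, 36.8, 37.5 and 7.97 FPKM, against 113 in WT. In VEMD6 the regulators had log2 ratios of -0.67 to -0.10 and the effectors of -2.10 to -0.84, ranges that do not overlap. In VEMD8 the regulators had ratios of -1.90 to -1.13 and the effectors of -4.16 to -2.81, again without overlap. In VEMD2, VEMD3 and VEMD4 the ranges overlapped. The split rests on 3 effectors, of which Tgtp1 and Tgtp2 are near copies. How often other groups of 3 genes separate in this way was not counted. Gm12250 (also known as Irgb10), an IRG gene that is no member, had -0.32 in VEMD6 and -1.36 in VEMD8, inside the ranges of the regulators. The relatives Gm4841, at -0.40 and -1.20, and F830016B08Rik, at -0.24 and -1.25, were inside them too. Ifi47, an effector that is no member, had -0.99 in VEMD6, inside the effector range, and -2.02 in VEMD8, between both ranges.

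Of the guanylate-binding proteins, Gbp2 (gene 14469, chr3:142620663-142638008) was at 14.99, 9.46, 15.1, 7.03 and 1.3 FPKM from VEMD2 to VEMD8, against 16.8 in WT. VEMD2 and VEMD4 were close to WT, and VEMD8 was 12.9 times lower than WT before any FPKM was added. Its log2 ratio in VEMD6, -1.15, came to -0.91 after rescaling and so fell short of 2-fold. Gbp3 (gene 55932, chr3:142560016-142573213) was at 7.82, 9.39, 13.5, 1.49 and 1.55 FPKM, against 5.07 in WT. It was past 2-fold above WT in VEMD4, at a log2 ratio of 1.25, and past 2-fold below it in VEMD6 and VEMD8, at -1.29 and -1.25. With 5 FPKM added in place of 1, these 3 ratios were 0.88, -0.63 and -0.62. Gbp7 (gene 229900, chr3:142530336-142550151) was at 12.3, 6.39, 8.85, 8.93 and 3.31 FPKM, against 8.54 in WT. Only VEMD8 was past 2-fold, at a log2 ratio of -1.15, or -0.70 with 5 FPKM added.

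Gbp6 (gene 100702, chr5:105270702-105295871) was at 28.45, 31.5, 39.85, 89.7 and 31.4 FPKM from VEMD2 to VEMD8, against 25.5 in WT. All 5 knockout libraries were above WT, and VEMD6 alone was past 2-fold, at a log2 ratio of 1.78, or 2.01 after rescaling. Its coding sequence shares 98.4% with that of Gbp10, so the values of both are uncertain, and their summed FPKM gave a ratio of 2.05 in VEMD6.

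The relatives of Gbp6 on chromosome 5 are shown beside it, in a grouping by chromosome made after their values were seen. Gbp4 was at 10.4, 23.4, 46.5, 131 and 40.55 FPKM from VEMD2 to VEMD8, against 7.98 in WT. Gbp10 was at 4.68, 10.8, 17.7, 33.7 and 15.4 FPKM, against 3.57 in WT, and Gbp9 was at 3.6, 9.47, 20.4, 14.0 and 19.6 FPKM, against 2.42 in WT. Each of the 3 exceeded WT by 2-fold or more in every knockout library but VEMD2. Gbp8 was at 5.71, 9.0, 29.2, 26.6 and 9.33 FPKM, against 9.63 in WT, and was past 2-fold in VEMD4 and VEMD6. Gbp11 had a mean below 1 FPKM. The median ratio of the 5 genes read, Gbp6 included, was 0.31, 1.37, 2.03, 2.13 and 1.84 from VEMD2 to VEMD8. For the 3 GBP genes read on chromosome 3, which are the members Gbp2, Gbp3 and Gbp7, it was 0.48, -0.37, 0.05, -1.15 and -1.25. The coding sequences of Gbp4, Gbp6, Gbp9 and Gbp10 are 87.4% to 98.4% identical in pairs, and those of Gbp3 and Gbp6 71.4%.

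Of 19 further GBP, IRG and related genes with values, 14 passed the filter on low values. From VEMD2 to VEMD8, 1, 3, 4, 4 and 3 of them exceeded WT by 2-fold or more, and 1, 2, 1, 1 and 6 were below it by as much. Of all genes, 2.44%, 6%, 7.11%, 5.04% and 4.36% passed upward and 2.39%, 4.63%, 5.04%, 8.15% and 5.21% downward. The 6 lower ones in VEMD8 included Ifi47, an IRG effector also known as Irgd, at 25.1 FPKM against 105 in WT. Gm12250 was among them at 18.0 FPKM against 48.0 in WT. The others were Gm12185, Gm4841, F830016B08Rik and Gvin1. Gvin1, a very large interferon-inducible GTPase outside both families, was at 31.0, 1.33, 0.8, 12.2 and 7.22 FPKM from VEMD2 to VEMD8, against 70.6 in WT, and unlike the members was lowest in VEMD4. Gm5431, 9930111J21Rik1, 9930111J21Rik2 and Irgq were within 2-fold of WT in every knockout library, except that 9930111J21Rik2 came to 1.15 in VEMD6 after rescaling. Gbp5, Gbp11, Gbp2b, Irgc1 and Gm4951 had means below 1 FPKM.

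**Figure D3:**
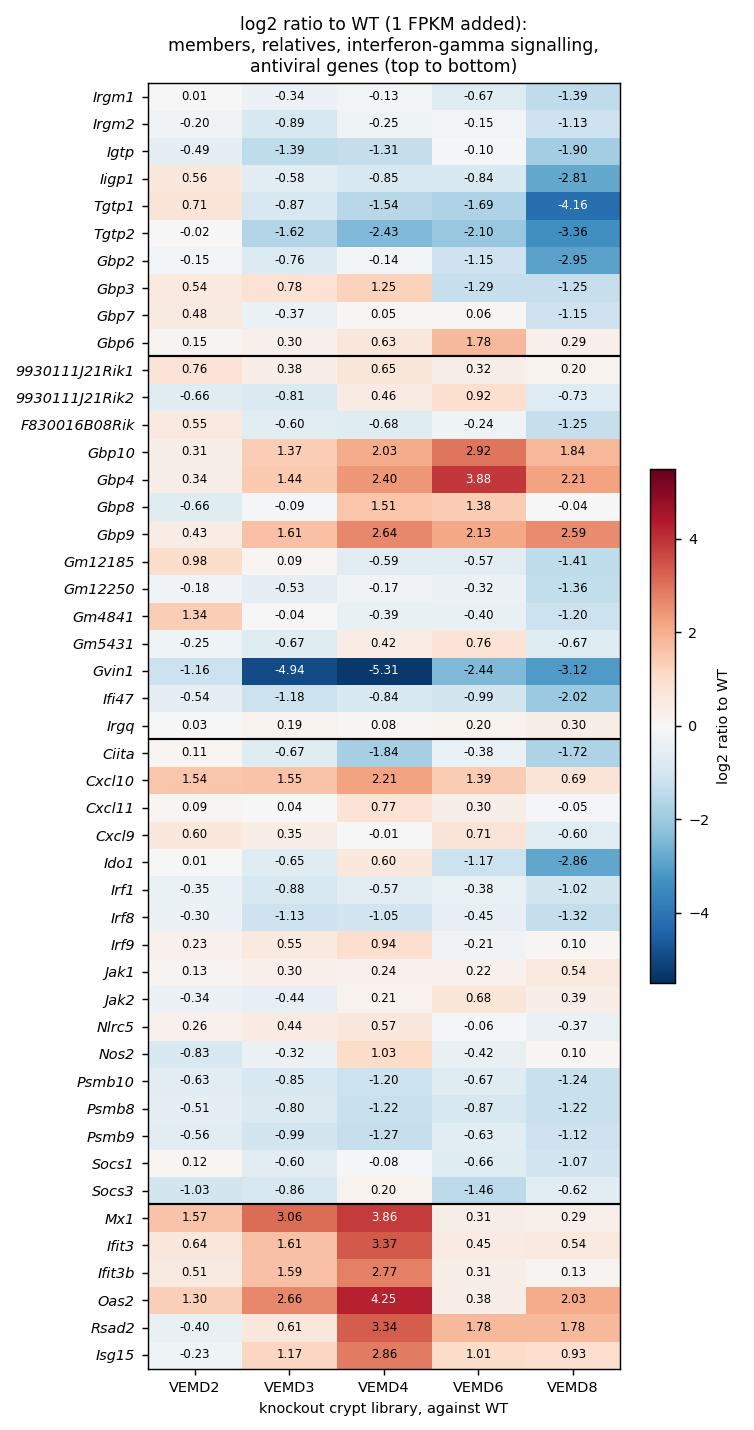
Log2 ratio of each knockout library (columns) to WT, with 1 FPKM added, for the 10 members, 14 further GBP, IRG and related genes, genes of interferon-gamma signalling and 6 antiviral genes, from top to bottom with a line between the groups; red is higher and blue lower than WT. In the VEMD8 column 9 of the 10 members are at -1.13 or lower, while in the VEMD4 column the 6 antiviral genes are at 2.77 or higher. These 6 are Mx1, Ifit3 and the genes of the antiviral list picked for the largest ratios. All 32 genes of that list range from 0.40 to 4.25 in VEMD4, with a median of 2.14.

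Antiviral genes of the type I response took another course than most members. Of 32 genes, 3, 15, 29, 5 and 7 exceeded WT by 2-fold or more from VEMD2 to VEMD8, against 2.44%, 6%, 7.11%, 5.04% and 4.36% of all genes. The median ratio of the 32 was 0.14, 0.80, 2.14, 0.44 and 0.54. In VEMD6 1 of them, and in each other library none, was at least 2-fold lower. After rescaling, 3, 15, 28, 8 and 9 passed upward, so that the count in VEMD6 moved most. Mx1 was at 6.66, 20.6, 36.4, 2.2 and 2.15 FPKM, against 1.58 in WT. Ifit3, of a family that binds viral RNA, was at 5.53, 11.8, 42.3, 4.72 and 5.08 FPKM, against 3.19 in WT. In VEMD4 both were more than 2-fold above every other library except for Mx1 in VEMD3, and in VEMD6 and VEMD8 both were within 2-fold of WT. Ifit3b, Oas2, Rsad2 and Isg15, the genes of the list with the largest ratios beside these, had log2 ratios of 2.77, 4.25, 3.34 and 2.86 in VEMD4. Among the members, Gbp3 alone was highest in VEMD4. By library, 4 members were highest in VEMD2, 4 in WT and 1 in VEMD6, and 8 were lowest in VEMD8. Such counts by library were not made over all genes, so neither these nor those of the other lists have a background. Set beside the promoter sequences, the 4 members with adjoining GAS and ISRE had log2 ratios of -4.16 to -1.13 in VEMD8, and the 3 with ISRE alone had -2.95 to -1.25, ranges that overlap.

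**Figure D4:**
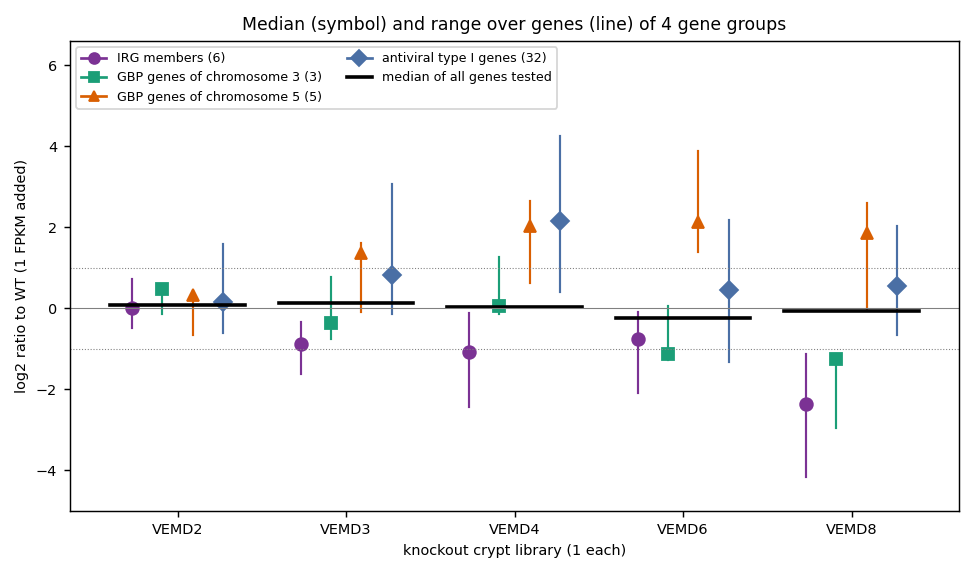
Median log2 ratio to WT with 1 FPKM added (symbols) and range over genes (vertical lines) in each knockout library for 6 IRG members, 3 GBP genes of chromosome 3, 5 GBP genes of chromosome 5 and 32 antiviral type I genes; the numbers in the key count genes, black bars give the median of all genes tested, and dotted lines mark 2-fold. In VEMD8 the IRG median is -2.36 and the antiviral median 0.54.

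VEMD8 was also set against VEMD4, a comparison that leaves WT out. All 10 members were lower in VEMD8 than in VEMD4, 6 of them by 2-fold or more, against 4.91% of all genes, and 0 were 2-fold higher, against 2.32%. The median of the members was -1.23, beside -0.10 over all genes. Gbp2 had the lowest log2 ratio, -2.81, followed by Tgtp1 at -2.63, Gbp3 at -2.50, Iigp1 at -1.96, Irgm1 at -1.26 and Gbp7 at -1.19. Tgtp2, Irgm2, Igtp and Gbp6 were within 2-fold, at -0.93, -0.88, -0.59 and -0.34. Since Tgtp1 and Tgtp2 are near copies, their single values, and so the count of 6, are uncertain here too. The 32 antiviral genes were lower in VEMD8 as well, 23 of them by 2-fold, with a median of -1.48.

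**Figure D5:**
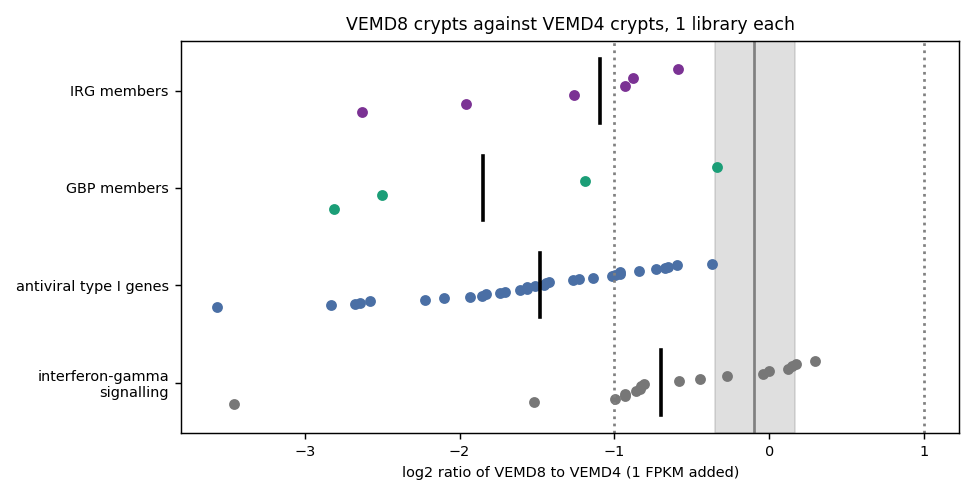
Log2 ratio of VEMD8 to VEMD4 with 1 FPKM added (horizontal axis) for each gene (points) of 4 groups, with group medians as black bars; the grey line and band give the median and the middle quartiles of all genes tested, and dotted lines mark 2-fold. All 10 members lie below 0, from -2.81 for Gbp2 to -0.34 for Gbp6.

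Genes that carry the signal of interferon-gamma were set beside the members. Ifng itself was at 0.15, 0.1, 0.2, 0.05 and 0 FPKM from VEMD2 to VEMD8, against 0.19 in WT, too low to read a ratio. Ifnb1 and Ifnl2 held no value, and Ifnl3 was at 0.11 in VEMD2 and listed at 0 elsewhere. The receptor chains Ifngr1 and Ifngr2 were at 79.3 and 56.0 FPKM in VEMD8, against 58.8 and 78.3 in WT. These and the other 4 receptor genes, Ifnar1, Ifnar2, Ifnlr1 and Il10rb, were within 2-fold of WT in all 5 knockout libraries as deposited. After rescaling, Ifnlr1 passed it in VEMD6, at 1.09, against 0.86 as deposited.

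Of 18 genes that transmit the signal or are known targets of it, 9 were at least 2-fold lower than WT in VEMD8 and 0 were higher. Of all genes, 5.21% were lower and 4.36% higher there by as much. Irf1 was at 179, 123, 153, 176 and 112 FPKM from VEMD2 to VEMD8, against 229 in WT, and so was past 2-fold in VEMD8 only, at a log2 ratio of -1.02. After rescaling Irf1 had -0.96 in VEMD8 and -1.01 in VEMD3, and the genes of the list past 2-fold downward numbered 7 in VEMD8 and 3 in VEMD3. Ido1, an enzyme that breaks down tryptophan, was at 4.79 FPKM in VEMD8 against 41.1 in WT. Socs1, a feedback inhibitor of the kinases, was at 6.6 FPKM in VEMD8 against 14.98 in WT, and Irf8 at 48.9 against 124. The immunoproteasome genes Psmb8, Psmb9 and Psmb10 and the class II activator Ciita were also among the 9, and all 4 were at least 2-fold lower in VEMD4 too. There Irf8 was also lower, and the chemokine gene Cxcl10 and the nitric oxide synthase gene Nos2 were the 2 higher ones. Cxcl10 was at 15.1, 15.2, 24.6, 13.5 and 7.93 FPKM from VEMD2 to VEMD8, against 4.53 in WT. It was also the 1 gene past 2-fold upward in VEMD2, VEMD3 and VEMD6. Past 2-fold downward were Socs3, a feedback inhibitor of cytokine signalling, in VEMD2, Irf8 in VEMD3, and Socs3 and Ido1 in VEMD6, where Ido1 came to -0.94 after rescaling. Jak1, Jak2, Nlrc5, Irf9, Cxcl9 and Cxcl11 were within 2-fold of WT in all 5.

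Some IRG and GBP proteins reach vacuoles with the help of the enzymes that attach ATG8 proteins to membranes. None of the 11 genes of that list was 2-fold from WT except Gabarapl1, which was higher in VEMD3 and VEMD4, at log2 ratios of 1.17 and 1.02. After rescaling, its ratio in VEMD4 was 0.99 and so short of 2-fold. Map1lc3a, the next in size, had -0.84 in VEMD8. The median of the list lay between -0.22 and -0.13 in the 5 libraries.

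By the root mean square difference of centred log2 values over the 6 libraries, the genes closest to the median course of the members were Mep1a at 0.20, Ifi47 at 0.20, Rab19 at 0.22, Gm12250 at 0.22 and Socs1 at 0.24, out of 8297 genes that averaged 5 FPKM or more. Taken singly and against 8306 genes, Irgm2 was closest to Irf1 at 0.15, Irgm1 to Socs1 at 0.17, Gbp7 to Gm12250 at 0.20, Igtp to the class II gene H2-Aa at 0.22 and Gbp2 to Ido1 at 0.26. Iigp1 was closest to Gbp2 at 0.43. Gbp3 was closest to Ass1 at 0.20, Gbp6 to Tpcn1 at 0.25, Tgtp1 to Naaladl1 at 0.29 and Tgtp2 to Fbp1 at 0.42.

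Markers of the cells in the crypts moved as well. The 7 epithelial markers were abundant in every library and summed to 5200 to 6541 FPKM in knockouts and 6354 in WT. Markers of T cells and innate lymphocytes, 11 genes of which Ncr1 was listed at 0 in all but VEMD3, summed to 106, 136, 174, 124 and 71.5 FPKM from VEMD2 to VEMD8, against 139 in WT. All 10 that passed the filter were highest in VEMD4, and 7 were lowest in VEMD8. Most of the WT sum came from Gzma, at 85.9, and its log2 ratio in VEMD8 was -1.07. The median ratio of the 10 there was -0.38. The 6 leukocyte markers summed to 17.9 to 40.5 FPKM in knockouts, highest in VEMD4, where Lcp1 alone stood at 20.6, and to 19.5 in WT. The 6 macrophage markers summed to 7.39 to 19.6 in knockouts and 14.7 in WT, with Adgre1 at no more than 0.13. Most of the WT sum came from Cd14, at 9.17. Of the 3 that passed the filter, Cd14 had a log2 ratio of 0.12 in VEMD4, Cd68 1.43 and Itgam -0.88. The 5 markers of endothelium and stroma summed to 1.37 to 7.04 in knockouts and 3.27 in WT. Most of the sum for endothelium and stroma came from Vim, at 3.02 FPKM in WT and the only 1 of the 5 that passed the filter. Paneth cell markers, 6 genes, summed to 1573 in VEMD6 and 2664 in VEMD8 and to 6524 to 29077 in the other knockouts, against 20165 in WT. Most of the WT sum came from Defa17, at 12801. In VEMD4, 4 of the 6 Paneth cell markers were at least 2-fold lower, while Pla2g2a was higher, at a log2 ratio of 1.05. In VEMD8 Pla2g2a alone was within 2-fold of WT, at -0.58. The 6 enterocyte markers summed to 1653 in VEMD3 and 11481 in VEMD6, with the other knockouts between, against 5914 in WT, but single markers went opposite ways. Alpi had log2 ratios of 2.88 in VEMD6 and 2.11 in VEMD8, where Lct had -1.90 and -5.57, and 3 of the 6 markers were above and 3 below WT in VEMD8. The 5 crypt base stem cell markers summed to 199 to 593 in knockouts and 673 in WT, most of it from Olfm4, at 574 in WT. Of the others, Lgr5 and Smoc2 were below WT in all 5 knockout libraries. Ascl2 and Slc12a2 were above WT in VEMD2, VEMD3 and VEMD4, with log2 ratios of 0.77, 1.27 and 0.87 for Ascl2 and of 0.41, 0.51 and 0.04 for Slc12a2. In VEMD6 and VEMD8 all 5 stem cell markers were below WT. The part of these cell types in the levels of the GBP and IRG genes was not tested.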

How the data were processed

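RNA of crypts was made into libraries by BGI-500 protocols, per the labels' protocols. The authors deposited FPKM per gene to 2 decimals, a unit named per the file headers. HISAT2, featureCounts and edgeR, with builds GRCm38 and mm10, are named in the submitters' processing notes without versions or roles. Of 20718 lines, 3760 held no value and 16958 genes were used. Gene identifiers were matched to RefSeq symbols, which named 16916. Whole reads could not be read off low values, so the depth is unknown and no counting interval is given. Stem cell libraries and repeats are not analysed here.

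With 1 library a group there is no test. The members and the lists were chosen with earlier results of these data known. Ratios used 1 FPKM added to each value, genes averaging 1 FPKM or more, and a threshold of 2-fold. Alternatives were other values added, rescaling, no filter, another threshold, leaving out Tgtp1 and Tgtp2, VEMD2 as reference and near copies summed. Rescaling subtracted the median ratio of the 10862 genes tested. Genes named are every member, every gene of 3 lists (relatives, interferons with receptors, interferon-gamma signalling), the largest ratios of 2 lists (antiviral, ATG8) and the closest genes by course. Of 22 relatives listed, the name Ifgga1 is a synonym of a member and 2 others repeat genes already listed. Trac had no row. The ratio and threshold were checked on simulated data. Coding sequences are the longest per gene in GENCODE M21, aligned globally, with identity over the longer sequence. Protein sequences were not used here, and 1 gene of the interferon-gamma signalling list is counted but not reported singly. Python 3.11.15, pandas 2.3.3, numpy 2.4.6 and Biopython 1.88 were used.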

Additional observations from a re-analysis of the deposited data

Results flagged for a closer look

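Gbp3 was at least 2-fold higher than WT in one knockout library and at least 2-fold lower in another, with log2 ratios of 1.25 in VEMD4 and -1.29 in VEMD6. Gm4841, a relative of Iigp1 that is among the IRG genes but no member, had ratios of 1.34 in VEMD2 and -1.20 in VEMD8, from 11.8 and 1.2 FPKM against 4.06 in WT. Each library is 1 sample, so the difference between libraries was not tested.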

How the results depend on the processing

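No paired analysis was possible because a lone library stands for each group. Medians were compared by sign and by their side of 2-fold, and counts by a factor of 1.5. The count of 9 members lower than WT in VEMD8 was 7 with 5 FPKM added or without Tgtp1 and Tgtp2, 8 with VEMD2 as the reference (chosen after seeing the data), and 9 otherwise. Since Tgtp1 and Tgtp2 are both among the 9, leaving them out lowers the count by itself. The median of VEMD8 stayed between -1.78 and -1.32. With a threshold of 1.5-fold, the members higher than WT were 1 for VEMD2, 1 for VEMD3 and 2 for VEMD4, and 5 were lower for VEMD3. Without Tgtp1 and Tgtp2, 1 of the remaining members was lower in VEMD3, 1 in VEMD4 and 2 in VEMD6. With 5 FPKM added, 0 were higher in VEMD4 and 2 lower in VEMD6, and the median of VEMD8 against VEMD4 was -0.99. With VEMD2 as the reference 0 were higher in VEMD4. The share of all genes past the threshold was not computed at these other settings, so these counts stand without a background. Low genes such as Gbp3 depend most on the value added. Among other lists, the median of crypt base stem cell markers in VEMD6, -1.12 with 1 FPKM added, was -0.94 with 5 FPKM and -0.88 rescaled. With 0.1 FPKM, interferon-gamma signalling in VEMD8 moved past 2-fold, to -1.02 in place of -0.82, as did macrophage markers there, to -1.09 in place of -0.82. T cell markers in VEMD8 against VEMD4 did so too, to -1.26 in place of -0.95. Macrophage markers in VEMD8 against VEMD4, at -1.08, fell short of 2-fold at -0.71 with 5 FPKM, -0.98 rescaled and -0.75 without the filter. The cause of these shifts was not tested, and no value past 2-fold changed sign among those recomputed.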
